A study of Mus musculus with 20 samples.

Results

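The genes for the translation initiation factors of the mouse were followed across normal B cells and 2 kinds of B cell lymphoma. They were taken as every row of the count table whose symbol begins with Eif1 to Eif6, without the sex-linked copies Eif2s3x and Eif2s3y and without rows named as pseudogenes. 54 of the 37620 genes in the table met this rule, and 52 of the 54 had a count in at least 1 sample. Eif4e1b and Eif2c5 had 0 counts in all 20 samples, so 52 genes were tested among 17824. Eif4ebp3 was tested on very few reads, with 0 to 34 counts per sample.

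Messenger RNA was sequenced from B220-enriched cells of C57BL/6 mice, which were taken straight from the animal and not cultured. The normal group held 4 samples of spleen. The vector group held 8 lymphomas of genotype VavPBcl2/vector and the Myc group 8 lymphomas of genotype VavPBcl2/Myc. Both lymphoma groups therefore carry the VavPBcl2 transgene, in which a promoter active throughout the blood lineages drives the survival gene Bcl2, and differ in whether an empty vector or Myc was transduced. The labels give no ages and leave unsaid whether each replicate is its own animal. The p-values therefore rest on the spread among these samples, which may be technical. The labels set the normal cells against both lymphomas and the lymphomas against each other, and each of these 3 comparisons is given below.

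Initiation brings the ribosome, the first transfer RNA and the messenger RNA together. eIF1, eIF1A, eIF3 and eIF5 prepare the small ribosomal subunit, eIF2 delivers the initiator transfer RNA with GTP, and eIF2B recharges eIF2, a step that stress kinases block by phosphorylating eIF2. The messenger is recruited through its cap by eIF4E on the scaffold eIF4G with the helicase eIF4A, while the 4E-BP proteins hold eIF4E back until mTOR phosphorylates them. Myc is a transcription factor that binds DNA with Max at E-boxes and is known for raising genes of ribosome production and protein synthesis in B cells.

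The samples held 28.7 to 56.3 M counts in genes (M for 1e6). Multiply aligned reads were 14.3 to 17.9% of all reads in normal samples, 15.4 to 31.3% in vector lymphomas and 22.2 to 40.3% in Myc lymphomas, and were counted to no gene. By the run numbers in the labels, normal replicate 1 and vector replicates 1 to 6 belong to later sequencing runs, and the remaining 13 samples to earlier ones. Mitochondrial genes held 0.39 to 1.05% of the gene counts in the 7 later samples and 5.03 to 21.63% in the 13 earlier samples. Because 0 of 8 Myc lymphomas came from a later run, run and group overlap, and values within the earlier runs (8 Myc lymphomas, 2 vector lymphomas and 3 normal samples) stand beside the calls described. Myc transcript was at 229, 218, 179 and 343 CPM (counts scaled to a library of 1e6, with TMM scaling) in normal samples, between 48.3 and 226 (median 101) in vector lymphomas and between 313 and 1646 (median 909) in Myc lymphomas. Every Myc lymphoma lay above every vector lymphoma, and the lowest, Myc replicate 5, lay below normal replicate 4. Of 8 B cell markers 7 were lower in Myc than in vector lymphomas, and their summed level was 6630 to 7780 CPM in normal samples, 6180 to 9780 in vector and 1760 to 5510 in Myc lymphomas. Markers of other cells were higher in Myc than in vector lymphomas for 7 of 8 NK and cytotoxic genes (summed level 171 to 642 against 50.6 to 89.9 CPM), 5 of 7 plasmacytoid dendritic genes (264 to 2130 against 321 to 439 CPM), 5 of 8 neutrophil genes (1600 to 16400 against 53.2 to 5750 CPM) and 2 of 8 erythroid genes (3190 to 52700 against 2090 to 10400 CPM). The earlier runs alone left 3 NK and cytotoxic, 3 plasmacytoid dendritic, 0 neutrophil and 0 erythroid genes called higher, and 4 B cell genes called lower. A run term left 6, 4, 0 and 0 higher and 5 B cell genes lower. Leaving out Myc replicate 5 gave 7, 5, 3 and 0 higher and 8 B cell genes lower. Of all genes tested, 26.5% were higher and 21.9% lower in Myc than in vector lymphomas. These shares were 2.9 and 4.32% in the earlier runs and 9.19 and 9.75% with a run term. Of 8 T cell genes 3 were higher and 1 lower (697 to 1380 CPM in Myc, 554 to 1070 in vector and 1100 to 1240 in normal samples), and of 7 macrophage and monocyte genes 1 was higher and 1 lower (328 to 1470, 486 to 2010 and 548 to 1280 CPM). Among Myc lymphomas, replicate 5 held the highest sum of every list but T cell and neutrophil, at 1180 and 16200 CPM there. In normal samples the summed levels of the NK, plasmacytoid dendritic, neutrophil and erythroid lists were 173 to 266, 510 to 669, 76.4 to 899 and 122 to 1690 CPM. The part of these other cells in the levels of the initiation factors was not tested, and in such bulk samples fewer cells of a type and less RNA per cell cannot be told apart.

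E-boxes of the letters CACGTG, the form that Myc and Max bind best, were looked for in the 250 bases before the RefSeq start of each gene in the GRCm38.p6 build. The word reads the same on both strands, so 1 search covers both. A start was listed under the same symbol for 42 of the 54 genes, and 9 of the 42 had the word, against 1854 of all 27025 genes (6.86%) and 1978 of all 32851 windows (6.02%). Among the genes compared between Myc and vector lymphomas below, it was found in 5 of 17 that were higher, 1 of 6 that were lower and 3 of 18 that were not called. The windows of the first 6 with the word, in order of p in that comparison, are shown so that the positions of the word can be compared, with the word in capitals:
Eif5a: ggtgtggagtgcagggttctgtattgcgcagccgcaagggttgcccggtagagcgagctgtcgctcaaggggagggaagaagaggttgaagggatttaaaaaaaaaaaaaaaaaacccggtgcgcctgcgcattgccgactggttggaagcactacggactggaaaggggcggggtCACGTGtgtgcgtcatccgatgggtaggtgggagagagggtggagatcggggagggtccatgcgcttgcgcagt
Eif4a1: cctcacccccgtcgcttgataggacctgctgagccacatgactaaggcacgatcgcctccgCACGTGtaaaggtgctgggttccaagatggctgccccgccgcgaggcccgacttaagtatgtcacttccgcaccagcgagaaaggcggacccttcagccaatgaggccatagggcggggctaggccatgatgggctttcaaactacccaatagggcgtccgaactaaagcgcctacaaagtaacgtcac
Eif4e: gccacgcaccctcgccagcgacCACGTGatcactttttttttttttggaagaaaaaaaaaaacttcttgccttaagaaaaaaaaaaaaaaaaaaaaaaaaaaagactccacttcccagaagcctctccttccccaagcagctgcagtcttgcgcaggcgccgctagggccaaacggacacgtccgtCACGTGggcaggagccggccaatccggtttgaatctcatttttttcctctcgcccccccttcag
Eif3k: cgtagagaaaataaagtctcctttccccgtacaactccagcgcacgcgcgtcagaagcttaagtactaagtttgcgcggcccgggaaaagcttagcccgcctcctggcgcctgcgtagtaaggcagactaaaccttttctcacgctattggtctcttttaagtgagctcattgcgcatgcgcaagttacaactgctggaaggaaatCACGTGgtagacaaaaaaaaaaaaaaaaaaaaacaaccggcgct
Eif5a2: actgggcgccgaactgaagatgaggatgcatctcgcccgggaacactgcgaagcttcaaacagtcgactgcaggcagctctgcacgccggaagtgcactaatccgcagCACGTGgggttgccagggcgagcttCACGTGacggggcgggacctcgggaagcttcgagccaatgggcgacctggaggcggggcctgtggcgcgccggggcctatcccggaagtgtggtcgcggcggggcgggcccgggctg
Eif1b: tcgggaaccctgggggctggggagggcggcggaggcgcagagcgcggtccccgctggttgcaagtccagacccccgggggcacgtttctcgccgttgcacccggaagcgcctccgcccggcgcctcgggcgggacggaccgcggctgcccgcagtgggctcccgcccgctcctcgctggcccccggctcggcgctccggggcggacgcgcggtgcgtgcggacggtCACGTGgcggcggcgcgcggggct

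These windows lie at chr11:69921387-69921636 on the minus strand for Eif5a, chr11:69672424-69672673 on the minus strand for Eif4a1, chr3:138527018-138527267 on the plus strand for Eif4e, chr7:28981889-28982138 on the minus strand for Eif3k, chr3:28781027-28781276 on the plus strand for Eif5a2 and chr9:120492356-120492605 on the plus strand for Eif1b. The first C of the word stood 74 bases before the start in Eif5a, 189 in Eif4a1, 44 in Eif3k and 24 in Eif1b. Eif4e carried the word at 228 and 64 bases and Eif5a2 at 142 and 117 bases. Eif5a has 3 listed starts with the word. Eif5a, Eif4a1, Eif4e, Eif3k and Eif1b were higher in Myc than in vector lymphomas and Eif5a2 was lower, so the word stood before a gene of each direction. A match describes the sequence only: no binding was measured here.

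Of the 52 initiation factor genes, 26 were higher and 6 lower in Myc lymphomas than in vector lymphomas, and 20 were not called. In edgeR's quasi-likelihood test with Benjamini-Hochberg adjusted p under 0.05, these 26 of 52 higher genes stood beside 26.5% of all genes tested, and the 6 of 52 lower genes beside 21.9%. The median log2 fold change was 0.45 over the 52 and 0.085 over all genes, and 39 of the 52 were above 0. The higher genes included subunits of eIF2, eIF2B and eIF3, all 3 tested eIF4E genes, Eif4a1, Eif4ebp1 and Eif5a. The 6 lower genes were Eif1, Eif2ak3, Eif4a2, Eif4g3, Eif4enif1 and Eif5a2. All Myc lymphomas lay above all vector lymphomas in 8 of the 52, beside 5.12% of all genes, and below them in 2 of the 52, beside 6.38%. Within the earlier runs, where 2 vector lymphomas remain, 1 of 52 was called higher (2.9% of all genes) and 1 lower (4.32%), while the median of the 52 was 0.49 and 44 were above 0. With run as a term of the model, 17 were higher (9.19% of all genes) and 2 lower (9.75%). All 32 called genes kept their sign in both of these fits, and 2 and 17 of them kept the call. The run term added calls of Eif2b5 and Eif4h, both higher.

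Against normal B cells, 29 of 52 were higher in Myc lymphomas, beside 21.4% of all genes, and 2 of 52 lower, beside 17.9%. The median was 0.55 over the 52 and 0.084 over all genes, and 43 of the 52 were above 0. All Myc lymphomas lay above all normal samples in 23 of the 52, beside 13.1% of all genes, and below them in 2, Eif4a2 and Eif4g3, beside 14.3%. The earlier runs alone gave 16 higher (12.5% of all genes) and 1 lower (7.85%), and 17 of the 31 called genes kept their call. The comparisons of Myc lymphomas with vector lymphomas and with normal cells share the Myc samples. In vector lymphomas against normal cells, 2 of 52 were higher, beside 7.41% of all genes, and 0 of 52 lower, beside 3.34%, and 37 of the 52 were above 0. Counts this small, with 4 normal samples, cannot set these genes apart from all genes. At an unadjusted p under 0.05, edgeR gave 5 higher and 2 lower there, 7 of 52 beside 24.3% of all genes in either direction. DESeq2 called 4 higher (9.93% of all genes) and 0 lower (4.2%), and with a run term edgeR called 0 higher (4.91% of all genes) and 0 lower (2.03%).

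**Figure D1:**
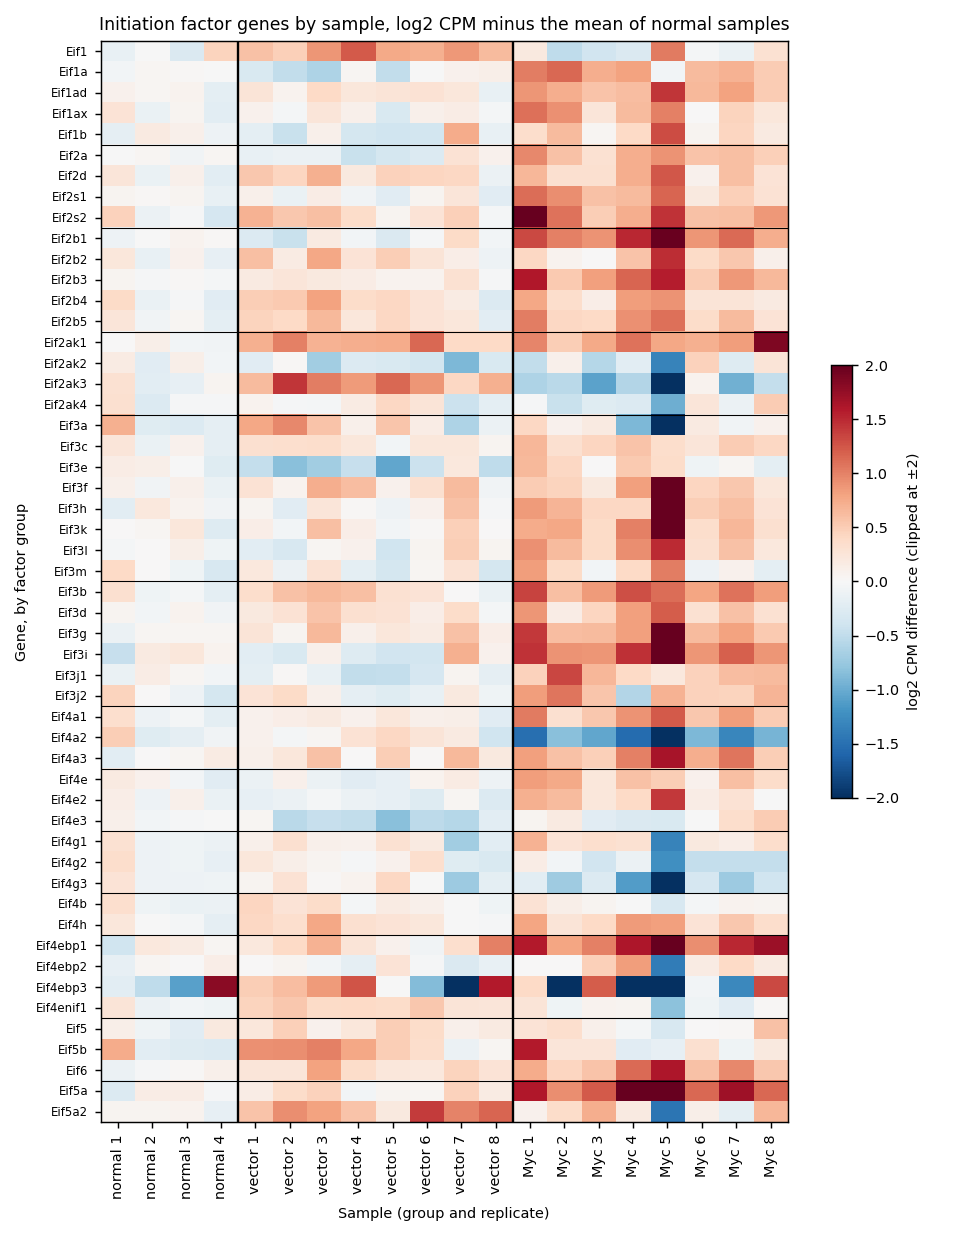
Level of each of the 52 tested genes (rows, ordered by factor group) in each of the 20 samples (columns), as log2 CPM minus the mean of the 4 normal samples, clipped at 2 in either direction. Most rows are red across the 8 Myc lymphomas, Eif4a2 is blue in all 8, and most of the cells at the clipping limit are in Myc replicate 5.

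**Figure D2:**
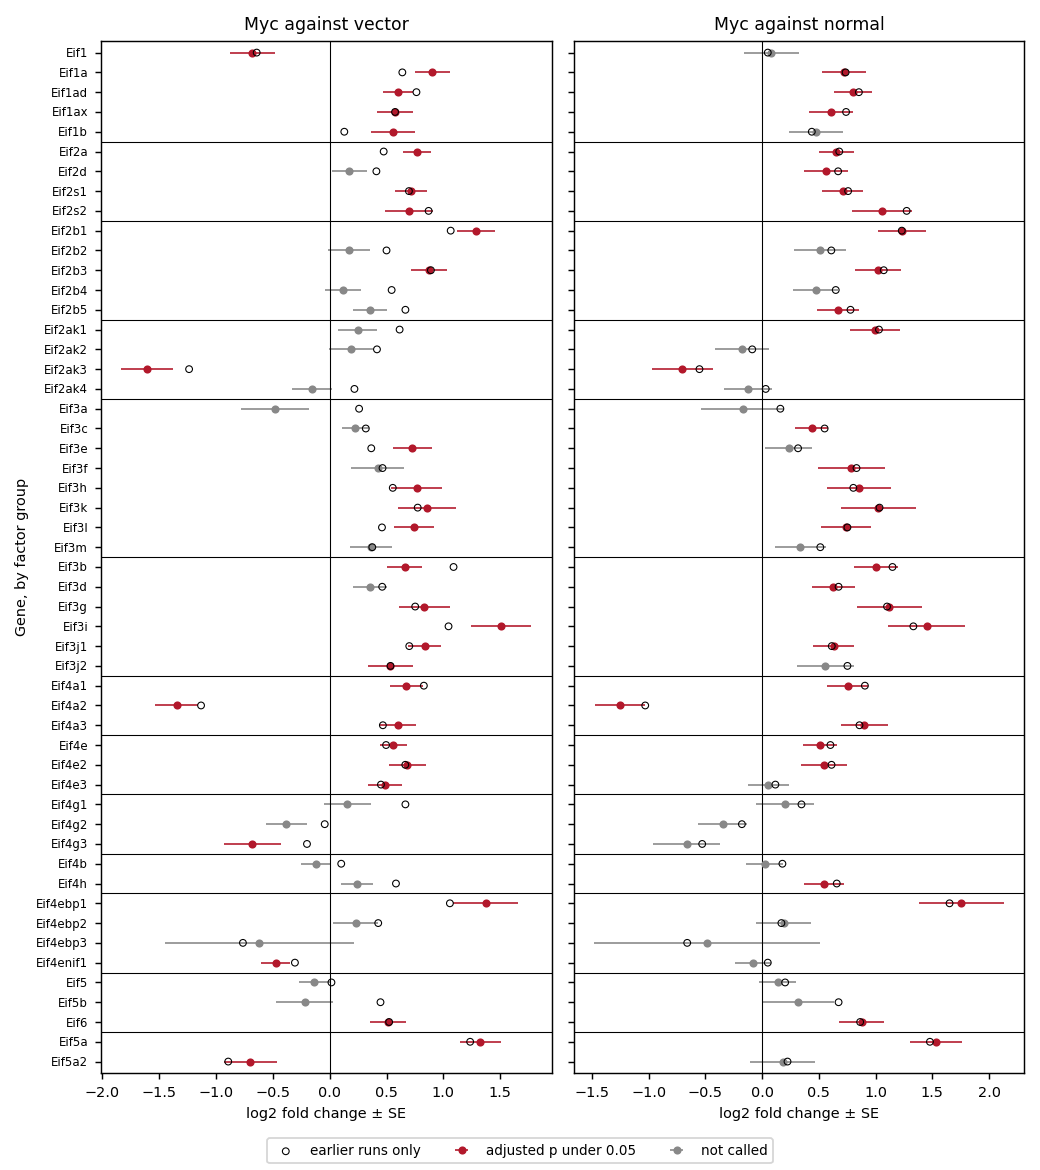
Log2 fold change ± SE of each of the 52 tested genes in Myc against vector lymphomas (left) and Myc lymphomas against normal cells (right), in red where the adjusted p was under 0.05. Open circles give the value within the earlier runs: 44 of 52 on the left lie above 0, beside 39 of the filled points.

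Over all 52 genes, the median of log2 CPM against the normal mean was -0.10 to 0.13 in the 4 normal samples, -0.06 to 0.32 in the 8 vector lymphomas and 0.29 to 0.96 in the 8 Myc lymphomas. The lowest Myc lymphoma, replicate 6 at 0.29, lay below 1 vector lymphoma, replicate 3 at 0.32, so the groups overlapped slightly. Myc replicate 5 had the highest median, at 0.96, and also the widest spread among the genes, with an interquartile range of 1.77 beside 0.36 to 0.88 in the other 7 Myc lymphomas.

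eIF1 and eIF1A bind the small subunit and set how strictly the start codon is chosen. Of the 5 genes in this group, 4 were higher and 1 was lower in Myc than in vector lymphomas. Over all genes the shares were 26.5 and 21.9%. Eif1a, which encodes a form of eIF1A, was at 35, 37.4, 37.2 and 36.2 CPM in normal samples, between 23.8 and 39.6 (median 33) in vector lymphomas and between 35.1 and 81 (median 59.6) in Myc lymphomas. Only Myc replicate 5, at 35.1 CPM, fell inside the range of the other groups. The gene was 1.87-fold higher in Myc lymphomas than in vector lymphomas (log2 0.90 ± 0.16 SE, adjusted p = 1e-04), and the value was 0.64 within the earlier runs (adjusted p = 0.19). The X-linked Eif1ax was higher by a log2 value of 0.57 ± 0.15 (adjusted p = 0.0046), with 0.57 in the earlier runs alone (adjusted p = 0.28). Eif1ad, a gene for an eIF1A domain protein, was higher by 0.60 ± 0.13 (adjusted p = 0.00088), with 0.76 in the earlier runs alone (adjusted p = 0.088), and its Myc samples all lay above its vector samples. Eif1b, a second eIF1 gene, was higher by 0.56 ± 0.19 (adjusted p = 0.021), but by 0.13 within the earlier runs (adjusted p = 0.85).

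Eif1 itself ran the other way. It was at 233, 256, 211 and 351 CPM in normal samples, between 360 and 606 (median 428) in vector lymphomas and between 181 and 531 (median 244) in Myc lymphomas. All vector lymphomas lay above all normal samples, and 7 of 8 Myc lymphomas lay below every vector lymphoma, with Myc replicate 5 at 531 the exception. Eif1 was 1.60-fold lower in Myc than in vector lymphomas (-0.68 ± 0.20, adjusted p = 0.0083), with -0.64 within the earlier runs (adjusted p = 0.3), and against normal cells it differed by 0.08 ± 0.24 (adjusted p = 0.81). Reads of Eif1 may be shared with processed copies. The copy Eif1-ps1 was at 4.58 ± 2.38 CPM (SD, n = 4) in normal samples, 4.11 ± 3.23 (n = 8) in vector and 6.28 ± 4.0 (n = 8) in Myc lymphomas, so how many Eif1 reads were set aside as aligning to several places is unknown.

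eIF2 carries the initiator transfer RNA. The genes counted here were Eif2s1 (its alpha subunit, the target of the stress kinases), Eif2s2 (beta) and the alternative transfer RNA carriers Eif2a and Eif2d. Of these, 3 of 4 were higher in Myc than in vector lymphomas, beside 26.5% of all genes. Against normal cells 4 of 4 were higher, beside 21.4%. Eif2s1 was at 69.5, 68, 69.5 and 60.3 CPM in normal samples, between 57 and 78.9 (median 66.7) in vector lymphomas and between 76.1 and 150 (median 102) in Myc lymphomas. The Myc samples lay above all normal samples, and 1 of them, replicate 6 at 76.1, lay below the highest vector lymphoma. Eif2s1 was 1.64-fold higher in Myc lymphomas than in vector lymphomas (0.72 ± 0.14, adjusted p = 0.00041) with 0.70 in the earlier runs alone (adjusted p = 0.17). Eif2s2 was higher by 0.70 ± 0.21 (adjusted p = 0.0094), with 0.87 in the earlier runs alone (adjusted p = 0.22), and against normal cells by 1.06 ± 0.27 (adjusted p = 0.0041), which held within the earlier runs at 1.27 (adjusted p = 0.023).

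Eif2a was at 55.9, 57.7, 53.6 and 58 CPM in normal samples, between 41.2 and 68.8 (median 51.3) in vector lymphomas and between 69.2 and 110 (median 84.7) in Myc lymphomas. The Myc samples did not overlap either other group. Eif2a was 1.71-fold higher in Myc lymphomas than in vector lymphomas (0.77 ± 0.12, adjusted p = 4.9e-05), with 0.47 within the earlier runs (adjusted p = 0.23). Eif2d was at 41.4, 31.9, 37.8 and 30.3 CPM in normal samples, between 32.4 and 57.2 (median 47.2) in vector lymphomas and between 37.4 and 83.1 (median 48.5) in Myc lymphomas. Its lymphoma groups overlapped widely and did not differ at the threshold (0.17 ± 0.15, adjusted p = 0.37). Against normal cells Eif2d was higher in Myc lymphomas by 0.56 ± 0.19 (adjusted p = 0.026), a call lost without normal replicate 2 (0.53, adjusted p = 0.076) or normal replicate 4 (0.51, adjusted p = 0.089).

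eIF2B is the exchange factor that returns eIF2 to its GTP form, and its 5 subunits did not all move to the same extent. Eif2b1, the alpha subunit, was at 24.7, 26.4, 27.7 and 26.9 CPM in normal samples, between 19.4 and 34.4 (median 25.5) in vector lymphomas and between 43.9 and 104 (median 55.6) in Myc lymphomas. The lowest Myc lymphoma lay above the highest sample of either other group. Eif2b1 was 2.44-fold higher in Myc lymphomas than in vector lymphomas (1.29 ± 0.17, adjusted p = 4.1e-06), with 1.06 within the earlier runs (adjusted p = 0.054), and 2.35-fold higher than in normal cells (1.24 ± 0.21, adjusted p = 0.00018, and 1.23 with 0.0069 within the earlier runs). Eif2b3, the gamma subunit of the catalytic pair, was higher by 0.87 ± 0.16 (adjusted p = 0.00018), with 0.89 in the earlier runs alone (adjusted p = 0.13), and its Myc lymphomas, from 21 to 44.8 CPM, lay above all vector lymphomas, from 14.6 to 18.3 CPM.

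The other eIF2B genes were not called between the lymphomas, but with a run term Eif2b5 was (0.63, adjusted p = 0.029). Eif2b2 differed by 0.17 ± 0.19 (adjusted p = 0.47), Eif2b4 by 0.12 ± 0.16 (adjusted p = 0.57) and Eif2b5, the catalytic epsilon subunit, by 0.35 ± 0.15 (adjusted p = 0.053). Leaving out vector replicate 3, Myc replicate 2 or Myc replicate 8 brought Eif2b5 past the threshold (adjusted p = 0.034, 0.042 and 0.031). Eif2b4 was at 47.2, 32.8, 35.5 and 30.8 CPM in normal samples, between 29.9 and 62.9 (median 47.2) in vector lymphomas and between 39.6 and 67.3 (median 44.4) in Myc lymphomas, 3 ranges that overlap. In the earlier runs alone the differences of these 3 genes were larger, at 0.50 for Eif2b2, 0.55 for Eif2b4 and 0.67 for Eif2b5, but none passed (adjusted p = 0.4, 0.26 and 0.18). Whether the subunits differ from each other was not tested.

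The 4 kinases that phosphorylate eIF2 answer to different stresses, and 1 of them was at its highest in vector lymphomas. Eif2ak3 encodes PERK, the kinase of endoplasmic reticulum stress. It was at 128, 88.9, 92.4 and 107 CPM in normal samples, between 137 and 278 (median 188) in vector lymphomas and between 21.3 and 108 (median 67.9) in Myc lymphomas. Every vector lymphoma lay above every normal sample and every Myc lymphoma, while Myc lymphomas and normal samples overlapped through Myc replicate 6 at 108 CPM. Eif2ak3 was 3.04-fold lower in Myc than in vector lymphomas (-1.60 ± 0.23, adjusted p = 1.2e-05). The difference was -1.24 within the earlier runs (adjusted p = 0.06) and -1.26 with a run term (adjusted p = 0.0045). It was 1.87-fold higher in vector lymphomas than in normal cells (0.90 ± 0.28, adjusted p = 0.043) and 1.63-fold lower in Myc lymphomas than in normal cells (-0.70 ± 0.27, adjusted p = 0.04). Both of these calls were lost within the earlier runs (0.68 with adjusted p = 0.79, and -0.55 with 0.24). Leaving out any 1 normal sample also ended them, with adjusted p of 0.054, 0.12, 0.12 and 0.093 for vector against normal and 0.17, 0.058, 0.066 and 0.095 for Myc against normal, in replicate order. So did leaving out vector replicates 2 to 6 for the first (0.056 for replicate 4 to 0.081 for replicate 2). Leaving out Myc replicates 3 or 7 ended the second (0.077 and 0.058). Without Myc replicate 1 the second call was kept, at an adjusted p that rounds to 0.05.

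Eif2ak1, the heme-regulated kinase HRI that is best known from red cell precursors, was at 80.5, 86.5, 76.3 and 75.7 CPM in normal samples, between 104 and 177 (median 131) in vector lymphomas and between 112 and 291 (median 139) in Myc lymphomas. All 16 lymphomas lay above all 4 normal samples. It was 1.68-fold higher in vector lymphomas than in normal cells (0.75 ± 0.22, adjusted p = 0.028) and 1.99-fold higher in Myc lymphomas than in normal cells (0.99 ± 0.22, adjusted p = 0.0015, and 1.03 with 0.022 within the earlier runs). The first call was lost within the earlier runs (0.41, adjusted p = 0.88) and without normal replicates 1, 3 or 4 or vector replicates 2 or 6 (adjusted p = 0.051 to 0.081). Erythroid markers moved the same way: 7 of 8 were higher in vector lymphomas and 8 of 8 in Myc lymphomas than in normal cells. Over all genes the shares were 7.41 and 21.4%. Within the earlier runs 0 of 8 were called in vector lymphomas (0.573% of all genes) and 8 of 8 in Myc lymphomas (12.5%). A run term also gave 0 of 8 (4.91%) and 8 of 8 (20.7%). Summed levels were 122 to 1690 CPM in normal samples, 2090 to 10400 in vector and 3190 to 52700 in Myc lymphomas. The part of these markers in the Eif2ak1 difference was not tested. Eif2ak2, the double-stranded RNA kinase PKR, and Eif2ak4, the amino acid sensor GCN2, passed no threshold in any of the 3 comparisons. Between the lymphomas Eif2ak2 differed by 0.19 ± 0.20 (adjusted p = 0.43) and Eif2ak4 by -0.15 ± 0.17 (adjusted p = 0.48).

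eIF3 is the largest initiation factor, a scaffold on the small subunit. Its octamer of PCI and MPN domain subunits was measured through 8 genes, with a median log2 fold change of 0.58 between the lymphomas. Of these, 4 were higher and 0 lower in Myc than in vector lymphomas, beside 26.5 and 21.9% of all genes. With a run term 0 of the 8 were called, beside 9.19% of all genes higher and 9.75% lower. In the earlier runs alone 0 of the 8 were called, beside 2.9 and 4.32%. All 8 values were above 0 in both of these fits. Eif3e was at 222, 216, 198 and 168 CPM in normal samples, between 96.6 and 231 (median 142) in vector lymphomas and between 175 and 312 (median 230) in Myc lymphomas. The highest vector lymphoma, replicate 7 at 231 CPM, lay within the Myc range, and the other 7 lay below all Myc lymphomas. Eif3e was 1.66-fold higher in Myc lymphomas than in vector lymphomas (0.73 ± 0.17, adjusted p = 0.0015), with 0.37 within the earlier runs (adjusted p = 0.51), and did not differ at the threshold from normal cells (0.23 ± 0.21, adjusted p = 0.38). Its processed copy Eif3s6-ps1 was at 3.78 ± 1.64 CPM (SD, n = 4) in normal samples, 1.98 ± 0.974 (n = 8) in vector and 4.1 ± 1.2 (n = 8) in Myc lymphomas. The copy Eif3s6-ps2 was at 7.6 ± 2.06, 4.24 ± 1.64 and 5.75 ± 1.76 CPM in the same order. Reads of Eif3e may therefore be split or set aside.

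Eif3h was higher by 0.77 ± 0.23 (adjusted p = 0.0083), Eif3k by 0.86 ± 0.26 (adjusted p = 0.01) and Eif3l by 0.74 ± 0.17 (adjusted p = 0.0016). Myc replicate 5 stood far above the rest in the first pair, at 959 CPM for Eif3h beside 268 to 401 in the other 7 Myc lymphomas and at 918 CPM for Eif3k beside 206 to 332. In the earlier runs alone the values were 0.56 for Eif3h, 0.77 for Eif3k and 0.46 for Eif3l (adjusted p = 0.48, 0.4 and 0.43), and with a run term 0.55, 0.80 and 0.54 (adjusted p = 0.24, 0.15 and 0.12). Without Myc replicate 5 the differences were 0.45 for Eif3h (adjusted p = 0.0061) and 0.46 for Eif3k (adjusted p = 0.0085). Eif3a, the largest subunit, differed by -0.48 ± 0.30 (adjusted p = 0.19) and by 0.26 within the earlier runs (adjusted p = 0.81), so its sign differed between the fits. In the later runs it was at 731 CPM in normal replicate 1 and 482 to 872 in vector replicates 1 to 6, and in the earlier runs at 369 to 394 in normal samples and 291 and 411 in vector replicates 7 and 8. Eif3c, Eif3f and Eif3m differed by 0.23, 0.42 and 0.36 and were not called (adjusted p = 0.12, 0.14 and 0.1).

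The 6 other eIF3 genes include the beta-propeller subunits b and i with their partner g, the cap-binding subunit d and the loosely bound j. Of these, 5 were higher and 0 lower between the lymphomas, beside 26.5 and 21.9% of all genes, with a median of 0.75. Eif3i was at 109, 170, 176 and 157 CPM in normal samples, between 116 and 246 (median 128) in vector lymphomas and between 278 and 1057 (median 312) in Myc lymphomas. The Myc samples overlapped neither other group, and replicate 5 was the highest at 1057 CPM, followed by replicate 4 at 413. Eif3i was 2.84-fold higher in Myc lymphomas than in vector lymphomas (1.51 ± 0.27, adjusted p = 0.00012), with 1.16 without Myc replicate 5 (adjusted p = 1.7e-05) and 1.04 within the earlier runs (adjusted p = 0.22). It was 2.73-fold higher than in normal cells (1.45 ± 0.34, adjusted p = 0.0024, and 1.33 with 0.037 within the earlier runs).

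Eif3b was at 249, 189, 194 and 175 CPM in normal samples, between 182 and 315 (median 250) in vector lymphomas and between 302 and 513 (median 393) in Myc lymphomas. All Myc samples lay above the normal ones, and the lowest of them, 302, fell just inside the vector range. Eif3b was 1.58-fold higher in Myc lymphomas than in vector lymphomas (0.66 ± 0.15, adjusted p = 0.0014) and was the 1 gene of the 52 called higher within the earlier runs (1.09, adjusted p = 0.033). Eif3j1 was at 29.2, 35.2, 32.7 and 30.8 CPM in normal samples, between 22.6 and 33.1 (median 28.1) in vector lymphomas and between 36.8 and 80.6 (median 46.3) in Myc lymphomas, with no overlap of Myc with either group. It was 1.79-fold higher (0.84 ± 0.14, adjusted p = 1e-04), with 0.70 within the earlier runs (adjusted p = 0.14).

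Its near copy Eif3j2 was higher by 0.53 ± 0.20 (adjusted p = 0.032), a call lost without vector replicates 4, 5 or 6 or Myc replicates 1, 2, 6 or 7 (adjusted p = 0.053 to 0.068), and lost at 0.54 in the earlier runs alone (adjusted p = 0.41). Reads shared by Eif3j1 and Eif3j2 may have been set aside. Eif3g was higher by 0.83 ± 0.23 (adjusted p = 0.0047), with 0.75 in the earlier runs alone (adjusted p = 0.34). Eif3d differed by 0.36 ± 0.15 (adjusted p = 0.051) and passed without vector replicate 3, Myc replicate 2 or Myc replicate 8 (adjusted p = 0.038, 0.024 and 0.036).

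The helicase eIF4A unwinds the leader of the messenger, and its paralogs went in opposite directions. Eif4a1 was at 331, 245, 255 and 230 CPM in normal samples, between 224 and 308 (median 283) in vector lymphomas and between 328 and 611 (median 423) in Myc lymphomas. All Myc lymphomas lay above all vector lymphomas, and the lowest lay just below normal replicate 1. Eif4a1 was 1.59-fold higher in Myc lymphomas than in vector lymphomas (0.67 ± 0.14, adjusted p = 0.00076), with 0.83 within the earlier runs (adjusted p = 0.11). Eif4a2 was at 737, 440, 459 and 497 CPM in normal samples, between 397 and 691 (median 574) in vector lymphomas and between 112 and 293 (median 233) in Myc lymphomas. The 8 Myc lymphomas lay below all 12 other samples. Eif4a2 was 2.54-fold lower in Myc than in vector lymphomas (-1.34 ± 0.19, adjusted p = 1.2e-05) and 2.39-fold lower than in normal cells (-1.25 ± 0.22, adjusted p = 0.00022), and it was the 1 gene of the 52 called lower in both comparisons within the earlier runs (-1.13 with adjusted p = 0.038, and -1.03 with 0.017). Eif4a3, the helicase of the exon junction complex, was at 62.5, 72.4, 74.1 and 80.3 CPM in normal samples, between 72.5 and 113 (median 83.4) in vector lymphomas and between 101 and 227 (median 123) in Myc lymphomas. Its lymphoma groups overlapped between 101 and 113 CPM, and in Myc lymphomas it was 1.51-fold higher (0.60 ± 0.16, adjusted p = 0.0052), with 0.47 among the earlier samples (adjusted p = 0.38).

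**Figure D3:**
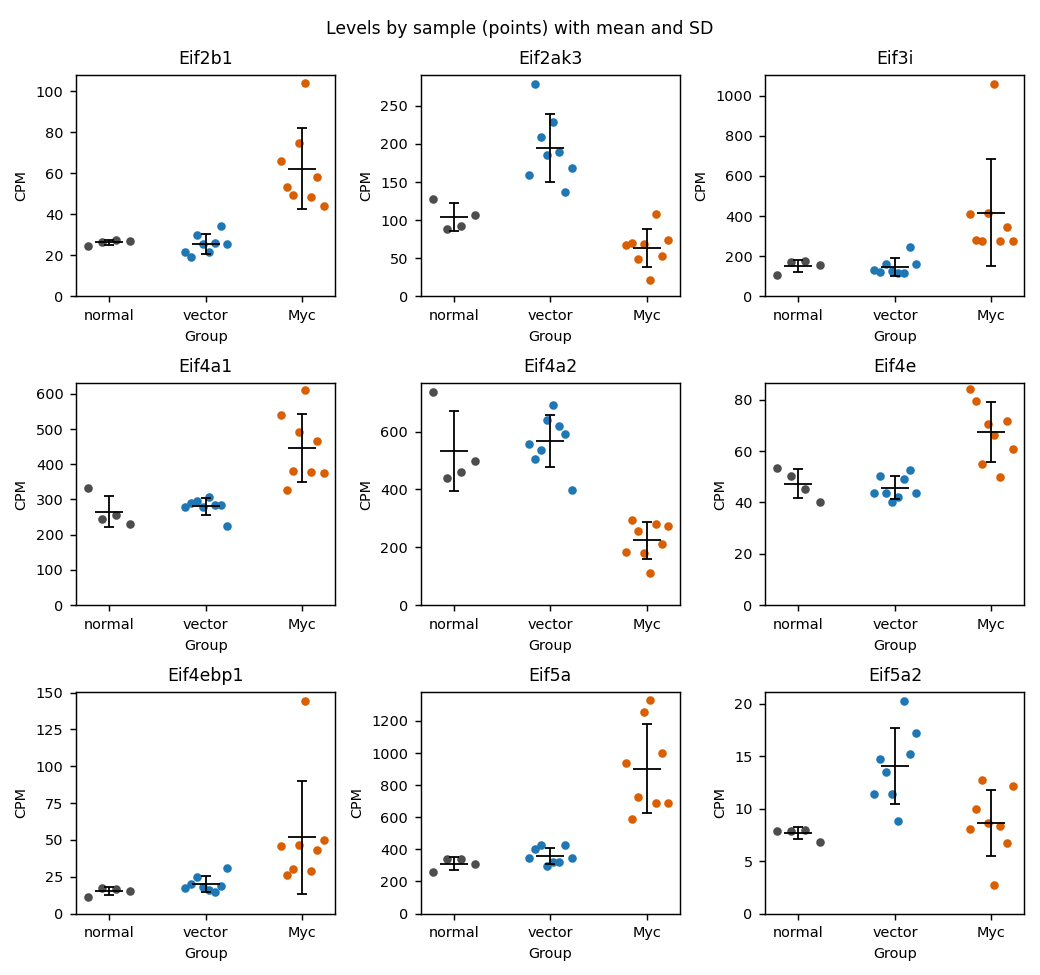
CPM in each sample (points) of 9 of the genes, by group, with the group mean (bar) and SD (whiskers). In Eif2b1, Eif3i, Eif4a1 and Eif5a every Myc lymphoma lies above every vector lymphoma, in Eif4a2 and Eif2ak3 every one lies below, and the isolated Myc point in Eif3i and Eif4ebp1 is replicate 5.

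The cap-binding proteins were all higher between the lymphomas: 3 of the 3 tested passed, beside 26.5% of all genes. Eif4e was at 53.3, 50.2, 45.4 and 40.3 CPM in normal samples, between 40.1 and 52.7 (median 43.6) in vector lymphomas and between 49.9 and 84.3 (median 68.6) in Myc lymphomas. Myc replicate 6, at 49.9 CPM, fell within the other groups and the other 7 Myc lymphomas lay above them. Eif4e was 1.48-fold higher in Myc lymphomas than in vector lymphomas (0.56 ± 0.12, adjusted p = 0.00083), with 0.50 within the earlier runs (adjusted p = 0.25). Compared with normal cells it was 1.42-fold higher (0.51 ± 0.15, adjusted p = 0.011), which became 0.46 with adjusted p = 0.051 without normal replicate 4. Eif4e2, a homolog linked to repression of translation, was higher by 0.68 ± 0.16 (adjusted p = 0.002), with 0.67 among the earlier samples (adjusted p = 0.25). Eif4e3, another homolog, was at 18.2, 16.4, 16.8 and 16.9 CPM in normal samples, between 9.51 and 17.5 (median 12) in vector lymphomas and between 13.7 and 24.2 (median 17.3) in Myc lymphomas. The highest vector lymphoma, replicate 1 at 17.5 CPM, lay within both other ranges. Eif4e3 was higher in Myc than in vector lymphomas by 0.49 ± 0.15 (adjusted p = 0.012), with 0.45 among the earlier samples (adjusted p = 0.36). Against normal cells it differed by 0.06 ± 0.18 in Myc lymphomas (adjusted p = 0.83) and by -0.43 ± 0.18 in vector lymphomas (adjusted p = 0.14).

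Among the genes whose proteins bind eIF4E and hold it from eIF4G, 1 was higher and 1 lower of the 4 tested. Over all genes, 26.5% were higher and 21.9% lower. Eif4ebp1 was at 11.4, 17.5, 16.9 and 15.5 CPM in normal samples, between 14.4 and 30.6 (median 18.5) in vector lymphomas and between 26.1 and 144 (median 44.4) in Myc lymphomas. All Myc lymphomas lay above all normal samples, and 1 vector lymphoma, replicate 8 at 30.6 CPM, overlapped the Myc range. Eif4ebp1 was 2.59-fold higher in Myc lymphomas than in vector lymphomas (1.37 ± 0.29, adjusted p = 0.00061) and 3.38-fold higher than in normal cells (1.75 ± 0.38, adjusted p = 0.0012). In the earlier runs alone these differences were 1.06 (adjusted p = 0.27) and 1.65 (adjusted p = 0.026), and without Myc replicate 5 the first was 0.96 (adjusted p = 2e-04).

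Eif4ebp2 was at 98.3, 113, 111 and 121 CPM in normal samples, between 90.5 and 133 (median 108) in vector lymphomas and between 41.8 and 198 (median 124) in Myc lymphomas. The groups overlapped, and Myc replicate 5 was the lowest of all 20 samples at 41.8 CPM. Eif4ebp2 was not called (0.23 ± 0.20, adjusted p = 0.34), but without Myc replicate 5 it was higher by 0.37 (adjusted p = 0.019). Eif4ebp3 was at 0.14, 0.106, 0.0551 and 0.71 CPM in normal samples and at no more than 0.6 CPM in any lymphoma, and at these counts no difference was detectable (-0.62 ± 0.83, adjusted p = 0.56). Eif4enif1, whose protein 4E-T carries eIF4E into the nucleus and to P bodies, was at 123, 95.2, 98.6 and 96.9 CPM in normal samples, between 122 and 150 (median 135) in vector lymphomas and between 58.1 and 123 (median 101) in Myc lymphomas. Lymphoma groups met only between 122 and 123 CPM, and Eif4enif1 was 1.39-fold lower in Myc lymphomas (-0.47 ± 0.13, adjusted p = 0.0053), with -0.30 within the earlier runs (adjusted p = 0.52).

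Of the 3 scaffold genes 1 was lower in Myc than in vector lymphomas, beside 21.9% of all genes. The helicase cofactors Eif4b and Eif4h were not called, although with a run term Eif4h was. Eif4g1, the main scaffold, was at 516, 390, 393 and 386 CPM in normal samples, between 257 and 523 (median 447) in vector lymphomas and between 165 and 677 (median 511) in Myc lymphomas. These ranges lay within each other, and Eif4g1 differed by 0.16 ± 0.21 (adjusted p = 0.55). The difference was 0.67 within the earlier runs, 0.59 with a run term and 0.29 without Myc replicate 5, with no call in these fits. Myc replicate 5 was the lowest Myc lymphoma at 165 CPM, and the others were at 458 to 677. Eif4g2, a scaffold that lacks the eIF4E site, differed by -0.38 ± 0.18 (adjusted p = 0.08), and passed at -0.46 without Myc replicate 1 (adjusted p = 0.035). Eif4g3 was at 362, 279, 280 and 281 CPM in normal samples, between 181 and 400 (median 308) in vector lymphomas and 259, 183, 248, 138, 42.7, 237, 180 and 227 in Myc lymphomas. All Myc lymphomas lay below all normal samples. Eif4g3 was 1.60-fold lower in Myc than in vector lymphomas (-0.68 ± 0.25, adjusted p = 0.029), with -0.20 within the earlier runs (adjusted p = 0.84), and the call was lost without vector replicate 2, vector replicate 5 or Myc replicate 4 (adjusted p = 0.051, 0.059 and 0.054). Eif4b, a cofactor of the helicase, differed by -0.12 ± 0.13 (adjusted p = 0.46). Eif4h, its relative, was at 261, 223, 218 and 197 CPM in normal samples, between 220 and 384 (median 275) in vector lymphomas and between 268 and 401 (median 310) in Myc lymphomas. Its lymphoma groups overlapped (0.24 ± 0.14, adjusted p = 0.17), with 0.58 among the earlier samples (adjusted p = 0.2) and 0.54 with a run term (adjusted p = 0.046). It was higher in Myc lymphomas than in normal cells by 0.55 ± 0.18 (adjusted p = 0.019), a call lost without normal replicates 2, 3 or 4 (adjusted p = 0.052, 0.057 and 0.075).

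eIF5 and eIF5B act at the joining of the ribosomal subunits, and eIF6 keeps the large subunit free until it is mature. Eif5 (-0.13 ± 0.14, adjusted p = 0.43) and Eif5b (-0.22 ± 0.25, adjusted p = 0.49) were not called between the lymphomas. Eif5b turned with the runs, to 0.45 within the earlier runs (adjusted p = 0.58), and passed as lower without Myc replicate 1 (-0.51, adjusted p = 0.038), the sample with its highest level, 393 CPM. Eif6 was at 48.2, 51.1, 53.2 and 56 CPM in normal samples, between 59.9 and 90.8 (median 62.3) in vector lymphomas and between 70.4 and 160 (median 82.8) in Myc lymphomas. All lymphomas lay above all normal samples, and the lymphoma groups overlapped through vector replicates 3 and 7. Eif6 was 1.43-fold higher in Myc lymphomas than in vector lymphomas (0.51 ± 0.16, adjusted p = 0.01), with 0.52 among the earlier samples (adjusted p = 0.32), and 1.83-fold higher than in normal cells (0.88 ± 0.20, adjusted p = 0.0019, and 0.86 with 0.029 within the earlier runs). Vector lymphomas and normal cells did not differ at the threshold (0.36 ± 0.19, adjusted p = 0.26).

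eIF5A, which acts in elongation despite its name and carries the unusual amino acid hypusine, showed the second pair of paralogs that moved apart between the lymphomas. Eif5a was at 256, 342, 342 and 306 CPM in normal samples, between 298 and 427 (median 345) in vector lymphomas and between 586 and 1329 (median 831) in Myc lymphomas. No Myc lymphoma overlapped either other group. Eif5a was 2.50-fold higher in Myc lymphomas than in vector lymphomas (1.32 ± 0.18, adjusted p = 6.9e-06), with 1.24 within the earlier runs (adjusted p = 0.059) and 1.17 with a run term (adjusted p = 0.0034). Compared with normal cells it was 2.89-fold higher (1.53 ± 0.23, adjusted p = 5.1e-05, and 1.48 with 0.0066 within the earlier runs). The processed copy Eif5al3-ps moved with it, at 15.3 ± 4.04 CPM (SD, n = 4) in normal samples, 11.7 ± 3.41 (n = 8) in vector and 31.7 ± 10.8 (n = 8) in Myc lymphomas, so some reads of Eif5a may be counted there or set aside. Eif5a2 was at 7.92, 7.92, 8.01 and 6.83 CPM in normal samples, between 8.81 and 20.3 (median 14.1) in vector lymphomas and between 2.75 and 12.7 (median 8.48) in Myc lymphomas. All vector lymphomas lay above all normal samples. Eif5a2 was 1.62-fold lower in Myc than in vector lymphomas (-0.70 ± 0.23, adjusted p = 0.018), with -0.89 within the earlier runs (adjusted p = 0.19). A run term gave -0.82 and no call. In Myc lymphomas against normal cells Eif5a2 differed by 0.18 and was not called, so it was lower only beside vector lymphomas. Vector lymphomas against normal cells gave 0.88 ± 0.30 (adjusted p = 0.061), and 0.95 with 0.042 without vector replicate 5.

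The balance within 4 pairs was compared as the log2 ratio of CPM + 0.5 in each sample, with exact two-sided permutation tests adjusted over 12. The pairs are made of genes already compared above, so these tests are not independent of the calls of those genes. The ratio of Eif4a1 to Eif4a2 was -1.16, -0.84, -0.85 and -1.11 in normal samples, between -1.20 and -0.81 in vector lymphomas and between 0.16 and 2.44 in Myc lymphomas. Its sign thus changed: Eif4a2 counts exceeded Eif4a1 counts in all 12 other samples and were exceeded by them in all 8 Myc lymphomas, although counts are not corrected for transcript length. The mean was 2.03 higher in Myc lymphomas, at 1.03 ± 0.77 (SD, n = 8), than in vector lymphomas, at -1.01 ± 0.16 (n = 8) (exact permutation test, adjusted p = 0.00093), and 2.02 higher than in normal cells, at -0.99 ± 0.17 (n = 4) (exact permutation test, adjusted p = 0.0097). Eif4a1 and Eif4a2 each separated the lymphoma groups fully, in opposite directions. Full separation of their ratio was therefore given in advance, and its p between the lymphomas adds no support to those gene calls. Within the earlier runs the first difference was 1.97, where 8 samples against 2 cannot give an exact p under 0.044 (adjusted p = 0.097). Vector lymphomas and normal cells differed by -0.01 (exact permutation test, adjusted p = 0.89).

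The ratio of Eif5a to Eif5a2 was between 5.76 and 8.67 in Myc lymphomas, between 3.94 and 5.11 in vector lymphomas and 4.93, 5.34, 5.33 and 5.38 in normal samples, so Myc lymphomas overlapped neither group. It was 2.00 higher in Myc than in vector lymphomas (6.66 ± 0.99 against 4.66 ± 0.38, SD, n = 8 each, exact permutation test, adjusted p = 0.00093) and 1.41 higher than in normal cells (exact permutation test, adjusted p = 0.0097). The vector mean lay below the normal mean (-0.59, exact permutation test, adjusted p = 0.021), and adjusted p was 0.053 without normal replicates 2, 3 or 4. The ratio of Eif4ebp1 to Eif4ebp2 was 1.04 higher in Myc than in vector lymphomas (-1.39 ± 1.33 against -2.43 ± 0.43, exact permutation test, adjusted p = 0.02). It was 1.77 in Myc replicate 5 and between -2.33 and -1.27 in the other 7 Myc lymphomas, and the difference within the earlier runs was 0.57 (adjusted p = 0.68 in the exact test). The ratio of the cap-binding protein gene Eif4e to Eif4ebp1 was 0.57 ± 0.77 in Myc lymphomas, 1.20 ± 0.38 in vector lymphomas and 1.60 ± 0.39 in normal cells (SD). Between the lymphomas it did not pass (-0.63, exact permutation test, adjusted p = 0.053) and against normal cells it did (-1.03, adjusted p = 0.024), though not without normal replicate 1 (-0.84, 0.065) or any other normal sample (0.053).

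**Figure D4:**
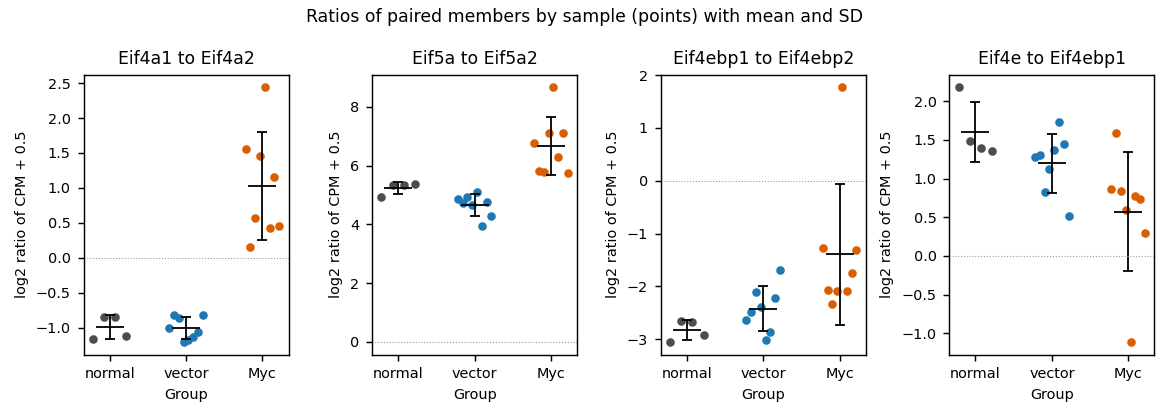
Log2 ratio of CPM + 0.5 for 4 pairs of genes in each sample (points), by group, with mean (bar) and SD (whiskers), where the dotted line marks equal CPM. Eif4a1 to Eif4a2 lies under 0 in all normal and vector samples and above 0 in all 8 Myc lymphomas.

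Vector lymphomas against normal cells gave 2 calls, Eif2ak1 and Eif2ak3, described above. In 6 of the 52 genes, Eif1, Eif2ak1, Eif2ak3, Eif3g, Eif5a2 and Eif6, all vector lymphomas lay above all normal samples, beside 7.33% of all genes, and in 0 of the 52 they lay below, beside 5.91%. The median log2 fold change was 0.15 over the 52 and -0.028 over all genes. Among the earlier samples, 2 vector lymphomas against 3 normal samples, 0 were higher (0.573% of all genes) and 0 lower (0.0324%), with 1 higher and 0 lower at an unadjusted p under 0.05 in edgeR, beside 9.55% of all genes in either direction.

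Other genes of translation and its control were counted from lists. Beside every such count of Myc against vector lymphomas stand the shares over all genes, 26.5% higher and 21.9% lower. Of 14 genes around mTORC1, the kinase that frees eIF4E from the 4E-BPs, 3 were higher and 4 lower in Myc than in vector lymphomas. Deptor, an inhibitor of mTOR, was 5.02-fold higher, at 11.4 ± 4.42 CPM against 2.26 ± 1.11 (SD, n = 8 each, log2 2.33 ± 0.28 SE, adjusted p = 2.1e-06, and 2.06 with 0.039 within the earlier runs). Tsc1, part of the complex that restrains mTORC1, was 2.33-fold lower (-1.22 ± 0.25, adjusted p = 0.00051), with -0.50 within the earlier runs (adjusted p = 0.51). Of 6 tested regulators of eIF2 phosphorylation, 0 were higher and 3 lower. Ppp1r15a, the stress-induced subunit that brings a phosphatase to eIF2, was at 1030 ± 424 CPM in vector lymphomas (SD, n = 8), 236 ± 166 in Myc lymphomas (n = 8) and 241 ± 189 in normal cells (n = 4). It was lower in Myc than in vector lymphomas (-2.13 ± 0.42, adjusted p = 0.00035) and higher in vector lymphomas than in normal cells (2.09 ± 0.55, adjusted p = 0.016), and both calls were lost within the earlier runs (-1.33 with 0.24, and 1.18 with 0.79). Its constitutive relative Ppp1r15b was lower by -0.66 ± 0.23 (adjusted p = 0.021), with 0.00 within the earlier runs.

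Of the 5 genes around poly(A)-binding protein, which joins the tail of the messenger to eIF4G, 2 were higher and 2 lower. This count and those that follow stand beside 26.5% higher and 21.9% lower over all genes. Pabpc1 was 1.69-fold higher (0.76 ± 0.15, adjusted p = 0.00041) and Paip2b, an inhibitor of it, 1.75-fold lower (-0.81 ± 0.20, adjusted p = 0.0023). Both calls were lost among the earlier samples (0.95 with adjusted p = 0.088, and -0.34 with 0.6). Of 7 accessory and recycling factors, 2 were higher and 1 lower. Mcts1, which acts with Denr in reinitiation, was higher by 1.20 ± 0.25 (adjusted p = 0.00065) but by 0.40 within the earlier runs (adjusted p = 0.49), and Abce1, which splits ribosomes, by 0.77 ± 0.17 (adjusted p = 0.0011), with 0.73 there (adjusted p = 0.22). Of the pair of enzymes that make hypusine on eIF5A, Dohh was higher by 0.65 ± 0.17 (adjusted p = 0.0035), with 0.77 among the earlier samples (adjusted p = 0.14), and Dhps was not called. Of 9 elongation genes 7 were higher and 0 lower, among them Eef1b2 (1.69 ± 0.27, adjusted p = 3.9e-05), and of 3 termination genes 2 were higher, Etf1 (0.55 ± 0.12, adjusted p = 0.00064) and Gspt1 (0.44 ± 0.15, adjusted p = 0.021). The earlier samples alone gave 1.17 for Eef1b2, 0.51 for Etf1 and 0.68 for Gspt1 (adjusted p = 0.16, 0.24 and 0.18). In that fit 1 of the 9 elongation genes and 0 of the 3 termination genes were called, and with a run term 4 and 2. The shares of all genes called higher in these fits were 2.9 and 9.19%.

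1 Myc lymphoma shaped the spread of many of these genes. Relative to the mean log2 CPM of the other 7 Myc lymphomas, Myc replicate 5 was higher in genes with short transcripts and lower in genes with long ones. Its median difference was 0.93 over the 17 genes with the shortest coding transcripts (744 to 1997 bases), 0.42 over the next 18 (2013 to 3712 bases) and -0.93 over the 17 longest (3754 to 8134 bases). Across the 52 genes, which share the library and are not independent replicates, this difference was correlated with the log2 of transcript length. The values were r = -0.64 and rho = -0.71. In the other 19 samples, each against the rest of its group, r ran from -0.43 to 0.54. There rho ran from -0.56 in vector replicate 7 to 0.59 in Myc replicate 3. Without this sample 27 genes were higher (25.4% of all genes) and 6 lower (23.3%) in Myc than in vector lymphomas, and all 32 genes called with it were called the same way. With the sample left out and run as a term, an alternative chosen after the data were seen, 19 were higher (12.1% of all genes) and 4 lower (13.1%).

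**Figure D5:**
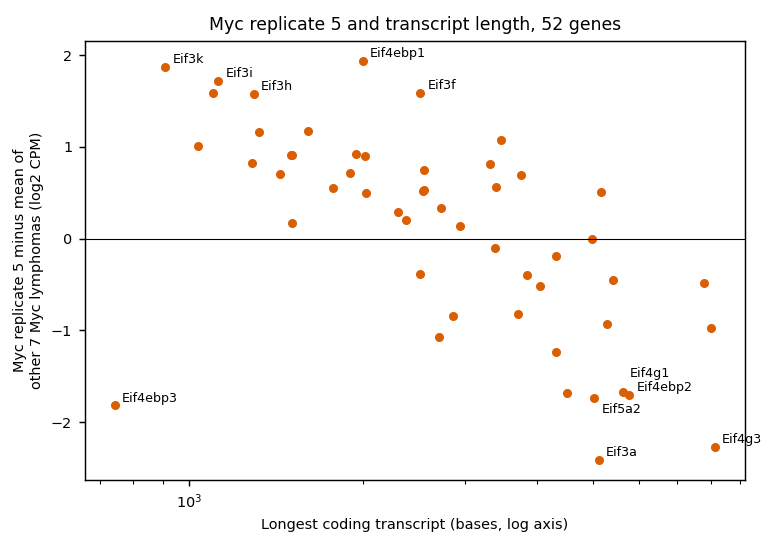
Difference of Myc replicate 5 from the mean of the other 7 Myc lymphomas (log2 CPM) against the length of the longest coding transcript (bases, log axis) for the 52 tested genes (points). Short genes such as Eif3k and Eif3i lie above 0 and long genes such as Eif3a and Eif4g3 below, with r = -0.64 on log2 length. Eif4ebp3, with 0 counts in this sample, is the low point at the left.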

How the data were processed

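Libraries of poly(A) RNA were read on the Ion Proton, per the labels' protocols. The authors deposited unscaled read counts for each gene and sample. Per the submitters' processing notes, mm9 and NCBIM37 were the builds, and the tools included HTSeq, BWA (0.7.5a) and Picard (1.119). Sources used here do not give the strand setting. Names (32897 identifiers matched, 4723 did not) and transcript lengths came from GENCODE vM21 and promoter windows from RefSeq, both on GRCm38, so no coordinate of the files was used. 5 lines of reads given to no gene were left out of library sizes, and 37.1 to 57.0% of a sample's reads were counted to genes.

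Genes were filtered with filterByExpr by group (minimum count 10) and tested by the quasi-likelihood F test of edgeR 4.0.16 in R 4.3.3 (robust, two-sided, TMM scaling) with all 20 samples and the 3 groups fitted together. A gene was called at a Benjamini-Hochberg adjusted p under 0.05, taken over all 17824 genes. SE is the log2 fold change divided by the root of F, and log2 CPM used a prior count of 2. The common biological coefficient of variation, a single value over all genes tested, was 0.47. Alternatives were DESeq2 1.42.0, other scalings, no filter, 2 groups only, earlier runs only, a run term and leaving out each sample. The fit was tested on simulated data. Members, lists, named genes and tests were chosen with earlier results of these data known. Described in full were a fixed set of genes and, in each factor group, those with the smallest p in Myc against vector and in vector against normal; Eif2s2, Eif2b3, Eif3i and other remaining genes are given more briefly. From each list the called genes with the smallest p, at most 2, are named.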

Additional observations from a re-analysis of the deposited data

Results flagged for a closer look

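In each group of 4 or 8 samples, the sample at either end was compared with its nearest neighbour as a share of the group's range. 32 of 156 groups (52 genes in 3 groups) held a sample beyond the 95% critical value of Dixon's test, where chance flags about 1 in 20, or 7.8. These samples were not spread evenly: 14 of the 32 values came from Myc replicate 5 and 8 from normal replicate 1.

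Myc replicate 5 was the lowest Myc lymphoma in Eif3a (84.4 CPM), Eif4g1 (165), Eif4g2 (365), Eif4g3 (42.7), Eif4ebp2 (41.8), Eif4enif1 (58.1) and Eif5a2 (2.75). It was the highest in Eif1ad (120.0 CPM), Eif2b2 (154), Eif3f (1664), Eif3h (959), Eif3i (1057), Eif3k (918) and Eif4ebp1 (144). The eIF4G scaffold genes were thus all at their lowest and several small eIF3 subunits at their highest in this sample.

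Normal replicate 1, the normal sample of the later runs, was the highest normal sample in Eif3a (731 CPM), Eif4b (615), Eif4enif1 (123), Eif4g1 (516), Eif4g2 (1098), Eif4g3 (362) and Eif5b (218) and the lowest in Eif3g (76.9). Normal replicate 4 was the lowest in Eif2s1 (60.3 CPM) and Eif5a2 (6.83).

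The other 8 values belonged to 7 samples. Vector replicate 7 was the highest vector lymphoma in Eif1b (45.1 CPM) and Eif3i (246), vector replicate 3 the highest in Eif6 (90.8) and vector replicate 8 the lowest in Eif4a1 (224). Myc replicate 1 was the highest Myc lymphoma in Eif5b (393 CPM), replicate 2 the highest in Eif3j1 (80.6), replicate 8 the highest in Eif2ak1 (291) and replicate 4 the lowest in Eif3j2 (3.93).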

How the results depend on the processing

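Sequencing run was the setting that changed the counts of called genes furthest. Within the earlier runs 1 gene was higher and 1 lower in Myc than in vector lymphomas, 16 higher and 1 lower in Myc lymphomas than in normal cells, and 0 higher in vector lymphomas than in normal cells. The shares over all genes there were 2.9 and 4.32%, 12.5 and 7.85%, and 0.573%. With a run term these counts were 17 and 2, 31 and 1, and 0, beside 9.19 and 9.75%, 20.7 and 16.3%, and 4.91%. Within the later runs alone, an alternative chosen after the data were seen, 0 genes were higher in vector lymphomas, beside 3.32%. At an unadjusted p under 0.05 in edgeR, 1, 4 and 4 genes were higher in vector lymphomas in these 3 fits, beside 9.55, 20.9 and 20.5% of all genes in either direction. Fitting only the 2 groups compared gave 1 lower gene for Myc against normal (13.9% of all genes) and 6 higher for vector against normal (12.4%). Fitting without the filter gave 1 higher there (4.64%), and DESeq2 gave 4 (9.93%). Leaving out each sample in turn gave 25 to 28 higher and 5 to 8 lower genes for Myc against vector. The ranges were 20 to 30 and 1 to 3 for Myc against normal, and 0 to 2 and 0 to 1 for vector against normal. Over all genes these fits gave 23.3 to 27.8% higher and 20.2 to 23.3% lower for Myc against vector. Such shares were 16.1 to 22.3% and 11.1 to 19.5% for Myc against normal, and 4.21 to 7.74% and 1.55 to 4.35% for vector against normal. Of the called genes, 30 of 32, 21 of 31 and 0 of 2 were called the same way in every such fit.

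For the ratios, the differences within the earlier runs that no longer passed were 1.97 for Eif4a1 to Eif4a2, 2.14 for Eif5a to Eif5a2 and 0.57 for Eif4ebp1 to Eif4ebp2 in Myc against vector, -0.83 for Eif5a to Eif5a2 in vector against normal, and -0.84 for Eif4e to Eif4ebp1 in Myc against normal. The exact p there cannot go under 0.044 with 8 against 2 samples, 0.012 with 8 against 3 and 0.2 with 3 against 2. Leaving out 1 sample gave -0.70 to -0.49 for Eif5a to Eif5a2 and 0.30 to 0.49 for Eif4ebp1 to Eif4ebp2 in vector against normal. For Eif4e to Eif4ebp1 it gave -0.77 to -0.38 in Myc against vector, -1.18 to -0.79 in Myc against normal and -0.49 to -0.21 in vector against normal. No called gene changed sign in any setting run, and 133 sign changes concerned differences that were called in neither fit.

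No paired analysis was possible because the labels give no replicate numbers that link samples of different groups. The cause of the changes with the runs was not tested: the earlier runs hold 2 vector lymphomas, which carry a title prefix of their own. Among the vector lymphomas, run, instrument and title prefix cannot be told apart. Reads that aligned to several places limit Eif1, Eif3e, Eif3j1, Eif3j2 and Eif5a, and 0 to 34 counts per sample limit Eif4ebp3.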
